A study of Mus musculus with 9 samples.

Results

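Horizontal cell genes are described here by 5 transcripts, *Lhx1*, *Calb1*, *Onecut1*, *Onecut2* and *Prox1*, which were taken by symbol from the gene tables of the series. Each symbol filled 1 row in each of the 9 tables, and the 5 genes were 5 of 25239 listed and 5 of 15198 that passed a filter on low values (a mean of at least 1 TPM, a transcript level scaled by gene length and library total, over all libraries). The filter used no genotype, and all 5 genes passed it.

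The libraries were made from whole retinas of C57BL/6J mice at P42 (postnatal day 42), with both retinas of 1 mouse in each. Of the 9 mice, 3 were +/+, 3 were Rbpms-CreERT2/+ (Cre/+) and 3 were Rbpms-CreERT2/CreERT2 (Cre/Cre). In the knock-in allele, a P2A peptide and the tamoxifen-inducible recombinase CreERT2 follow the last residue of RBPMS, an RNA-binding protein of retinal ganglion cells. The allele was made to reach ganglion cells, not horizontal cells. The comparison addresses whether the allele, in 1 or 2 copies, was accompanied by a different amount of horizontal cell RNA. Horizontal cells are a small share of retinal neurons, and in bulk tissue fewer cells of a type and less RNA per cell cannot be told apart.

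Horizontal cells are inhibitory interneurons whose processes meet photoreceptor terminals in the outer plexiform layer, where they feed signals back to rods and cones and shape contrast. They arise from progenitors that express the Onecut factors, and *Prox1* and *Lhx1* act in turn in their differentiation and in their placement within the retina. The mature cell is classically identified by calbindin, the product of *Calb1*. *Calb1*, *Prox1* and the Onecut genes are not specific to horizontal cells in the whole retina. Calbindin is also made by amacrine and ganglion cells, *Prox1* by AII amacrine and bipolar cells, and Onecut factors by ganglion cells.

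In mm10, *Lhx1* occupies 84517975 to 84525534 of chromosome 11 (minus strand), *Onecut1* 74861921 to 74889647 of chromosome 9 (plus strand) and *Prox1* 190118035 to 190170827 of chromosome 1 (minus strand). The tables place an antisense gene against a pair of them. *Lhx1os* (chromosome 11, plus strand, 84525660 to 84535831) starts head to head with *Lhx1*, with 125 bases between both starts. *Prox1os*, listed in the tables by its RefSeq gene number as LOC102632463 (chromosome 1, plus strand, 190170296 to 190217279), overlaps the first 532 bases of the *Prox1* interval on the opposite strand. The promoter of *Onecut1* is shown because its Cre/Cre libraries lay below all others. That of *Lhx1* is shown because *Lhx1os* starts within it, and that of *Prox1* because *Prox1os* covers it. Each is the 250 bases before the start of the gene in RefSeq (GRCm38.p6), written 5′ to 3′ on the strand of the gene at chr11:84525535-84525784 for *Lhx1*, chr9:74861671-74861920 for *Onecut1* and chr1:190170828-190171077 for *Prox1*. Capitals mark CCAAT and TGACGT or their reverse complements, and in *Prox1* the reverse complement of TATAAA.
Lhx1: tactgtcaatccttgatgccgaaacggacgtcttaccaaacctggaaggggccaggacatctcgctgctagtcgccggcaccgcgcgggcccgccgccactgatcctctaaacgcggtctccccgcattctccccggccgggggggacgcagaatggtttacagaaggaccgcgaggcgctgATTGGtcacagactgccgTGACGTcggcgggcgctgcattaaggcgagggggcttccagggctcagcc
Onecut1: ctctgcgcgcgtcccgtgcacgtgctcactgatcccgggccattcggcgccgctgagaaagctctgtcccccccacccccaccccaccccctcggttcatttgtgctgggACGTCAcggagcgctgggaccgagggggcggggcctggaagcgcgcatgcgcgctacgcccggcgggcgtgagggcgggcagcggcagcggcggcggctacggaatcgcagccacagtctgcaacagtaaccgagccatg
Prox1: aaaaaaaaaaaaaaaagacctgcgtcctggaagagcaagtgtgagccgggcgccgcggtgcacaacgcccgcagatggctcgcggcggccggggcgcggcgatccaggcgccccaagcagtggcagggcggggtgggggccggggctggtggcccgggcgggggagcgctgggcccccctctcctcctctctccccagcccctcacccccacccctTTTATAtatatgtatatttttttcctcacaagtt
The table of RefSeq promoters used here held 3 of the 5 genes. Positions are counted from the start of the gene. The *Lhx1* sequence holds CCAAT on the strand opposite to the gene from -68 to -64. It holds TGACGT (the core of cAMP response elements) from -50 to -45. Both lie between the starts of *Lhx1* and *Lhx1os*. The *Onecut1* sequence holds TGACGT on the minus strand from -140 to -135. In the *Prox1* sequence, TATAAA reads on the strand opposite to the gene from -34 to -29. That is the strand of *Prox1os*, and the site lies inside the *Prox1os* interval, not before its start. Searched on both strands over all 32851 promoter windows of this length, CCAAT occurred in 33.8%, TGACGT in 6.47% and TATAAA in 12.4%. None of the 3 sequences held TAATTA, a motif of homeodomain factors such as LHX1 (4.84% of all windows), or ATCGAT and ATCAAT, motifs of Onecut factors (0.728% and 6.72%), in this window. All 3 were rich in CpG, with 26 in *Lhx1*, 31 in *Onecut1* and 20 in *Prox1* against a median of 6, and their GC content was 64.8%, 71.6% and 64.8%.

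The depth, inferred from the most common ratio of coverage to FPKM, was 4.05 to 4.65 aligned gigabases per library in reads of 150 bases. Of the gene rows read for it, 56.9% to 57.5% held that ratio. The targeted gene, *Rbpms*, had mean levels of 41.7 (+/+), 32.2 (Cre/+) and 21.0 TPM (Cre/Cre), and it fell by 0.96 on the log2 scale in Cre/Cre (limma, Benjamini-Hochberg adjusted p = 0.000581). Several libraries stood apart. In Cre/Cre replicate 1, the ribosomal precursor Rn45s took 9.21% of all TPM, against 0.0827% to 0.336% in the other libraries, and the median gene was at 0.917 of its mean level against 0.985 to 1.03. *Xist*, expressed from the inactive X chromosome, was at 516 TPM or more in all +/+ libraries, Cre/+ replicates 1 and 2 and Cre/Cre replicate 2. In Cre/+ replicate 3 and Cre/Cre replicates 1 and 3 it was at 2.08 to 3.16 TPM. Low *Xist*, as in males, thus occurred only among knock-in libraries, so sex and genotype cannot be fully told apart. Lens transcripts summed to 1610 TPM in Cre/Cre replicate 2 and to 87.4 to 423 TPM elsewhere.

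*Calb1* occupies 15881264 to 15906709 of chromosome 4 and *Onecut2* 64340364 to 64398488 of chromosome 18, both on the plus strand. The 5 genes fell into 2 tiers of TPM, a unit that is scaled by transcript length. *Prox1* and *Calb1* averaged 100 and 92.4 TPM over the 9 libraries, above 86.3% and 84.9% of the genes tested. *Lhx1*, *Onecut1* and *Onecut2* averaged 6.80, 5.15 and 3.48 TPM, above 22.6%, 19.0% and 14.1%. *Calb1* exceeded *Lhx1* in every library, by 11.6-fold to 18.2-fold, so the tiers did not mix. Neighbours within a tier were close. *Prox1* exceeded *Calb1* in 8 of 9 libraries, *Lhx1* exceeded *Onecut1* in 8 of 9, and *Onecut1* exceeded *Onecut2* in 8 of 9, and the ranges of each pair overlapped. The mean coverage per base was 82.7 to 134 reads for *Prox1* and 83.4 to 133 for *Calb1*, but 3.20 to 11.1 for the 3 factors of the lower tier.

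**Figure D1:**
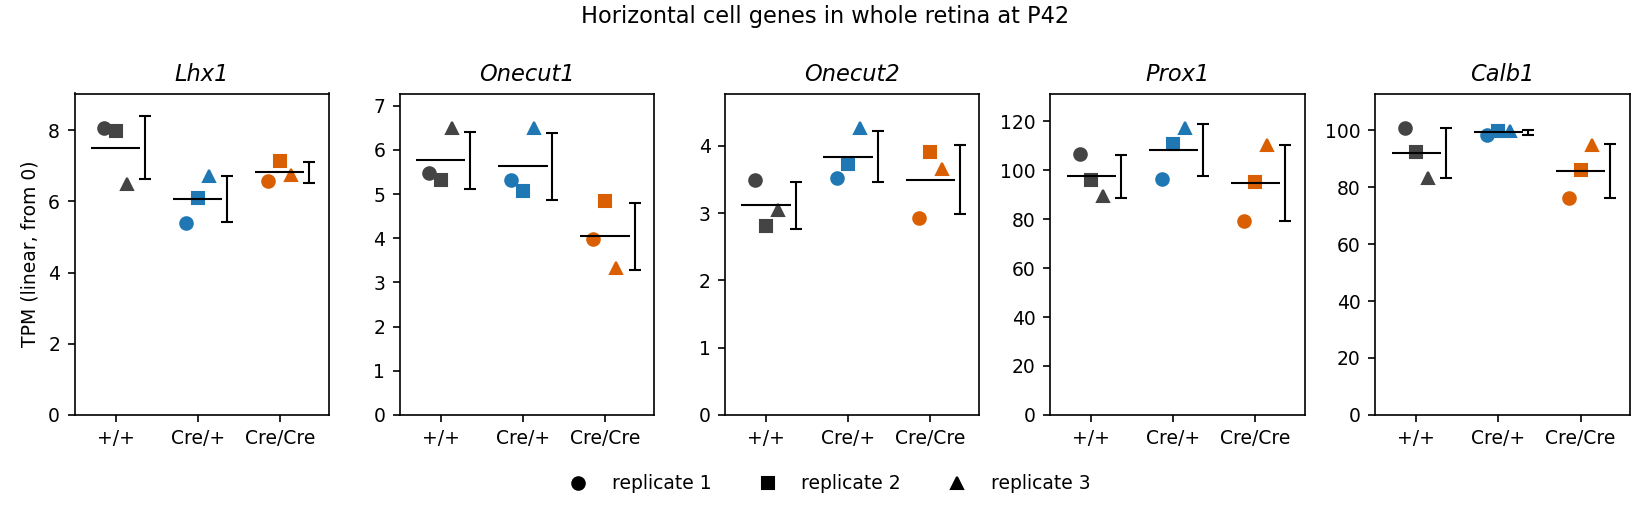
TPM of the 5 horizontal cell genes (linear axes from 0, 1 panel per gene) in 3 +/+, 3 Cre/+ and 3 Cre/Cre libraries. Points are libraries, with the replicate number as the symbol, lines are genotype means and bars the SD; *Onecut1* in Cre/Cre (3.33 to 4.85 TPM) lies below the libraries of both other genotypes, and the remaining genes overlap with +/+ in Cre/Cre.

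Among the 5 genes, the Onecut factors act first in the lineage. *Onecut1* (HNF6), a transcription factor needed for the genesis and survival of horizontal cells, stood at 5.48, 5.31 and 6.50 TPM in the +/+ libraries, at 5.32, 5.08 and 6.49 in Cre/+ and at 3.97, 4.85 and 3.33 in Cre/Cre. All 3 Cre/Cre libraries lay below every +/+ and every Cre/+ library, and the Cre/+ and +/+ libraries covered nearly the same range. The mean was 5.77 ± 0.641 TPM in +/+ (SD, n = 3), 5.63 ± 0.755 in Cre/+ and 4.05 ± 0.762 in Cre/Cre, which is 70.2% of the +/+ mean. On the log2(TPM + 1) scale the difference of Cre/Cre from +/+ was -0.43 (SE 0.16, 95% confidence interval -0.77 to -0.08), and with a Benjamini-Hochberg adjusted p of 0.655 in limma it did not pass the test. The difference of Cre/+ from +/+ was -0.03 (-0.38 to 0.31, adjusted p = 0.959 in limma), with a sign that turned without +/+ replicate 3 or Cre/+ replicate 1 or 2, and that of Cre/Cre from Cre/+ was -0.40 (-0.74 to -0.05, adjusted p = 0.74). The 2 lowest Cre/Cre libraries, replicates 1 and 3, were those with little *Xist*, and in Cre/+ the library with little *Xist* was the highest for *Onecut1*. With *Xist* as a covariate the Cre/Cre difference was -0.41 (adjusted p = 0.973 in limma). Without Cre/Cre replicate 1 it was -0.42, and without replicate 3 of that genotype it was -0.32. Ganglion cells also make Onecut factors. Their markers summed to 1769 to 1856 TPM in +/+, 1689 to 1761 in Cre/+ and 1309 to 1588 in Cre/Cre. The part of these cells in the *Onecut1* values was not tested.

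*Onecut2*, a partially redundant paralog of *Onecut1*, was at 3.50, 2.81 and 3.05 TPM in +/+, 3.53, 3.73 and 4.26 in Cre/+ and 2.92, 3.91 and 3.65 in Cre/Cre. The Cre/+ libraries all lay above the +/+ libraries, by a narrow gap between 3.50 and 3.53 TPM, and the Cre/Cre libraries overlapped with both. Means were 3.12 ± 0.349, 3.84 ± 0.382 and 3.50 ± 0.512 TPM (SD, n = 3 each), and the log2 differences from +/+ were 0.23 in Cre/+ (-0.12 to 0.59, adjusted p = 0.606 in limma) and 0.12 in Cre/Cre (-0.23 to 0.48, adjusted p = 0.946). *Onecut1* and *Onecut2* therefore did not stand apart from +/+ in the same direction. Their ratio within a library, which no scaling of the library can alter, was 1.57, 1.89 and 2.13 in +/+, 1.36 to 1.52 in Cre/+ and 0.911 to 1.36 in Cre/Cre. The +/+ ratios lay above all those of the other genotypes, with means of 1.86 ± 0.283, 1.46 ± 0.0879 and 1.17 ± 0.232 (SD, n = 3 each). This ratio was chosen after the values of both genes had been seen, and it was given no test.

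*Prox1*, a homeodomain factor that drives progenitors out of the cell cycle towards the horizontal cell fate, was at 107, 96.1 and 89.4 TPM in +/+, 96.5, 111 and 117 in Cre/+ and 79.2, 95.001 and 110 in Cre/Cre. The genotypes overlapped, and the Cre/Cre libraries spanned the widest range. Means were 97.5 ± 8.77, 108 ± 10.6 and 94.8 ± 15.6 TPM (SD, n = 3 each), and the log2 differences from +/+ were 0.15 in Cre/+ (-0.10 to 0.39, adjusted p = 0.636 in limma) and -0.05 in Cre/Cre (-0.29 to 0.20, adjusted p = 0.978). The lowest library was Cre/Cre replicate 1, the one rich in Rn45s. Its 79.2 TPM became 90.2 once short and structural RNA genes were left out of the scaling, and without this library the Cre/Cre difference was 0.07, and without +/+ replicate 1 it was 0.02. Bipolar and AII amacrine cells also make *Prox1*. Bipolar cell markers summed to 1329 to 1603 TPM in Cre/Cre and to 1565 to 1793 TPM in +/+, and AII amacrine markers to 417 to 454 TPM in Cre/Cre and 446 to 480 TPM in +/+. Both sums were lowest in Cre/Cre replicate 1, as were those of the rod, cone, amacrine, ganglion and Müller cell lists, and the part of these cells in the *Prox1* values was not tested.

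*Lhx1*, a LIM homeodomain factor that places horizontal cells in their layer, stood at 8.06, 7.99 and 6.48 TPM in +/+, 5.40, 6.08 and 6.71 in Cre/+ and 6.57, 7.13 and 6.73 in Cre/Cre. The first and second +/+ libraries were the highest of all, and the third lay among the libraries of the other genotypes. Means were 7.51 ± 0.891, 6.07 ± 0.654 and 6.81 ± 0.287 TPM (SD, n = 3 each). The log2 difference from +/+ was -0.27 in Cre/+ (-0.56 to 0.03, adjusted p = 0.49 in limma) and -0.12 in Cre/Cre (-0.42 to 0.18, adjusted p = 0.931). The lowest mean of *Lhx1* was thus in animals with 1 knock-in allele, not 2.

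*Calb1*, the calcium buffer of the mature cell, was at 101, 92.4 and 83.3 TPM in +/+, at 98.3, 99.9 and 99.9 in Cre/+ and at 76.1, 86.0 and 94.97 in Cre/Cre. The Cre/+ libraries lay close together and above all Cre/Cre libraries, and the +/+ libraries overlapped with both. Means were 92.2 ± 8.77, 99.4 ± 0.927 and 85.7 ± 9.43 TPM (SD, n = 3 each). The log2 difference was 0.11 for Cre/+ from +/+ (-0.08 to 0.30, adjusted p = 0.655 in limma), -0.11 for Cre/Cre from +/+ (-0.30 to 0.09, adjusted p = 0.889) and -0.22 for Cre/Cre from Cre/+ (-0.41 to -0.03, adjusted p = 0.74). Cre/Cre replicate 1 was again the lowest library, and its 76.1 TPM became 86.7 without short and structural RNA genes. The ratio of *Prox1* to *Calb1* was between 0.982 and 1.17 in all libraries, and the Cre/+ libraries alone spanned that range.

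**Figure D2:**
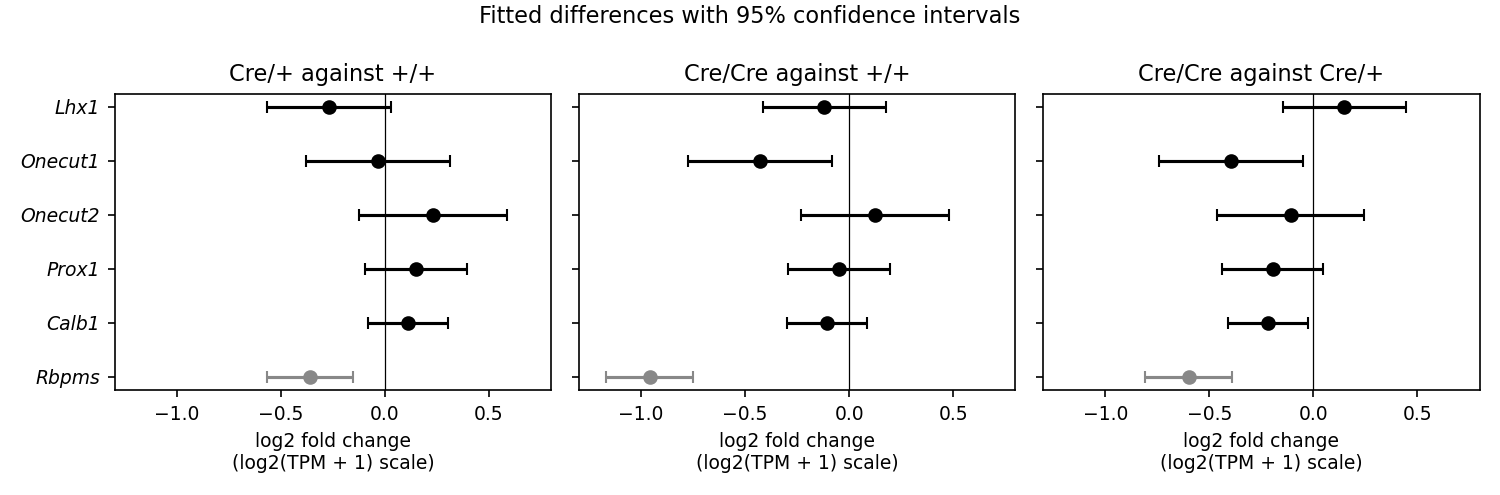
Fitted log2 fold changes (log2(TPM + 1) scale, horizontal axis) of the 5 genes, with *Rbpms* in grey, for 3 comparisons of genotypes; bars are 95% confidence intervals from limma. The interval lies off 0 for *Onecut1* in both comparisons with Cre/Cre and for *Calb1* against Cre/+, and no horizontal cell gene passed the adjusted p.

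Over the 5 genes, 0 passed an adjusted p of 0.05 in Cre/+ against +/+, where 0.00658% of all genes tested did (limma). In Cre/Cre against +/+, 0 of 5 passed, against 0.00658% of all genes, and in Cre/Cre against Cre/+ 0 of 5 passed, against 0.0132%. At an unadjusted p under 0.05 the count was 0 of 5 in Cre/+ against +/+ (10.7% of all genes), 1 of 5 in Cre/Cre against +/+ (6.97%), namely *Onecut1*, and 2 of 5 in Cre/Cre against Cre/+ (6.58%), namely *Onecut1* and *Calb1*. A test of any difference among the genotypes gave 0 of 5 (0.0132% of all genes), with the smallest adjusted p for *Onecut1* at 0.558 in limma. A trend over the number of alleles gave 0 of 5 (0.00658%), with -0.21 per allele for *Onecut1* (SE 0.08, adjusted p = 0.758 in limma). At an unadjusted p, *Onecut1* alone was below 0.05 in both, as were 8.63% and 6.24% of all genes. Counts of 1 or 2 among 5 genes are too small to be set apart from these shares.

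Libraries of the genotypes compared did not overlap for 1 of the 5 genes in Cre/+ against +/+ (*Onecut2*, higher, as for 11.9% of all genes). They did not overlap for 1 of 5 in Cre/Cre against +/+ (*Onecut1*, lower, 8.05%) and for 2 of 5 in Cre/Cre against Cre/+ (*Onecut1* and *Calb1*, lower, 7.23%). These held under median-ratio scaling and without short RNA genes, and the latter added *Lhx1* as higher in Cre/Cre than in Cre/+, at 6.79 to 7.49 against 5.45 to 6.77 TPM (on the deposited scale, 4.76% of all genes were higher without overlap). The median log2 difference of the 5 genes was 0.11 in Cre/+ and -0.11 in Cre/Cre against +/+, beside 0.00 and -0.02 over all genes. Without Cre/Cre replicate 1 the latter was -0.02, beside 0.02 over all genes. The median for Cre/Cre against Cre/+ was -0.20, and -0.07 without that library.

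The spread between libraries of a genotype was ordinary for these genes. The residual SD on the log2 scale was 0.12 for *Lhx1* and *Calb1*, 0.14 for *Onecut2*, 0.17 for *Onecut1* and 0.18 for *Prox1*, and 43.7% to 71.1% of all genes had a smaller one. The 95% intervals of the Cre/Cre difference reached down to -0.30 for *Calb1* and -0.29 for *Prox1*, but to -0.77 for *Onecut1*, and differences further below 0 lie outside them. A difference of 0 lies within the interval for 4 of the 5 genes, with *Onecut1* as the exception.

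The antisense partners were compared with their genes. *Lhx1os* averaged 4.88 ± 0.285, 5.82 ± 1.66 and 5.14 ± 0.643 TPM in +/+, Cre/+ and Cre/Cre (SD, n = 3 each), with log2 differences from +/+ of 0.19 and 0.06 (adjusted p = 0.694 and 0.982 in limma). The ratio of *Lhx1* to *Lhx1os* within a library was 1.28 to 1.76 in +/+, 0.792 to 1.49 in Cre/+ and 1.19 to 1.61 in Cre/Cre, and the genotypes overlapped. *Prox1os* averaged 10.1 ± 1.58, 8.76 ± 0.708 and 11.3 ± 2.56 TPM, with log2 differences of -0.18 and 0.12 (adjusted p = 0.664 and 0.935 in limma). The ratio of *Prox1* to *Prox1os* was 11.8 to 13.2 in Cre/+, above the 8.96 to 10.03 of +/+ and the 6.81 to 10.08 of Cre/Cre. Libraries were strand-specific, but the strand setting of the gene counting is not given in the sources used here, so reads from the overlap of *Prox1* and *Prox1os* may be split between them. These ratios were chosen after the values had been seen and were given no test.

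**Figure D3:**
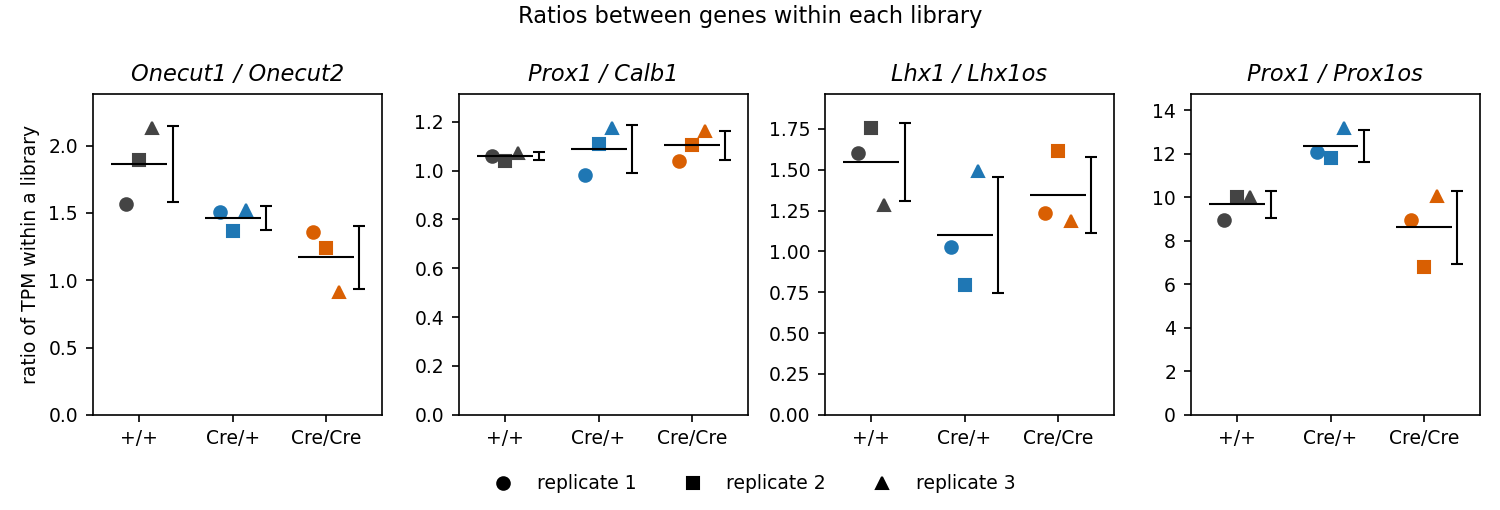
Ratios of TPM within each library (vertical axes, linear from 0) for *Onecut1* to *Onecut2*, *Prox1* to *Calb1*, *Lhx1* to *Lhx1os* and *Prox1* to *Prox1os*. Points are libraries, lines genotype means and bars the SD. The ratio of *Onecut1* to *Onecut2* is 1.57 to 2.13 in +/+ and at most 1.52 elsewhere. That of *Prox1* to *Calb1* is 0.982 to 1.17 over all libraries.

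Other genes of horizontal cell function were read from a list. All 9 genes reported from it passed the filter, and some genes of the list are not reported here, for a reason unrelated to their values, so the counts below are not those of the whole list. In +/+ retinas, *Septin4*, a cytoskeletal protein of horizontal cells, averaged 233 TPM and *Slc32a1*, the vesicular GABA transporter, 120 TPM. *Gja10* (connexin 57), which couples horizontal cells through gap junctions, averaged 5.60 TPM, and the mosaic-spacing receptors *Megf10* and *Megf11* averaged 14.5 and 19.5 TPM. No gene of this list passed the adjusted p in either comparison with +/+. At an unadjusted p, 1 of 9 was lower in Cre/+ (*Slc32a1*, 5.82% of all genes were lower) and 4 of 9 were lower in Cre/Cre (5.39% of all genes), namely *Nefh*, *Nefl*, *Nefm* and *Slc32a1*.

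The neurofilament subunits *Nefh*, *Nefm* and *Nefl* gave log2 differences of -0.42, -0.34 and -0.23 in Cre/Cre against +/+, with adjusted p-values of 0.126, 0.634 and 0.624 in limma. *Slc32a1* was at -0.16 (adjusted p = 0.668 in limma). Neurofilaments are made in quantity by ganglion cells too and stand in both lists. The ganglion cell list was lower in Cre/Cre for 8 of 12 genes at an unadjusted p (5.39% of all genes). Without Cre/Cre replicate 1 it was lower for 6 of 12 (544 of all 15198 genes). It summed to 1309 TPM in that library and to 1565 and 1588 TPM in the other Cre/Cre libraries, against 1769 to 1856 TPM in +/+. The neurofilaments make up a large part of this sum. Without them, a choice made after the values were seen, 5 of 9 ganglion cell genes were lower at an unadjusted p (5.39% of all genes). Without Cre/Cre replicate 1 as well, 3 of 9 were lower (544 of all 15198 genes). The sum without neurofilaments was 647, 789 and 719 TPM in Cre/Cre against 857 to 893 TPM in +/+. *Slc32a1* is shared with amacrine cells, whose list summed to 1473 TPM in Cre/Cre replicate 1 and to 1632 and 1651 TPM in the other Cre/Cre libraries, against 1663 to 1727 TPM in +/+. The part of these cells in the values above was not tested. The remaining 5 genes of the list all had intervals that include 0, with *Gja10* at -0.21 (-0.54 to 0.12), *Septin4* at -0.08 (-0.22 to 0.06), *Lrrc4*, a synaptic adhesion protein, at -0.07 (-0.29 to 0.16), *Megf10* at 0.09 (-0.15 to 0.33) and *Megf11* at 0.10 (-0.10 to 0.30). The median of the list was 0.02 in Cre/+ and -0.16 in Cre/Cre (-0.14 without Cre/Cre replicate 1).

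Genes of horizontal cell specification gave 0 of 8 tested past the adjusted p in both comparisons with +/+ (0.00658% of all genes in each, limma). At an unadjusted p the count was also 0 of 8 in both, beside 10.7% of all genes in Cre/+ and 6.97% in Cre/Cre, shares at which few or none of 8 genes would be counted. *Foxn4* and *Ptf1a*, which act in progenitors, were below the filter. *Tfap2a* and *Tfap2b*, factors of horizontal and amacrine cells, averaged 35.4 and 122 TPM in +/+ and differed by -0.07 (-0.27 to 0.13) and 0.00 (-0.18 to 0.17) in Cre/Cre. *Onecut3*, the third Onecut gene, averaged 4.48 TPM, and its difference in Cre/Cre was 0.00 (-0.37 to 0.36). *Isl1* and *Sall3* were at -0.05 (-0.30 to 0.20) and -0.09 (-0.47 to 0.29), and *Pax6* at -0.11 (-0.31 to 0.08). *Atoh7* and *Rorb* had wide intervals, with -0.68 (-1.68 to 0.32) and -0.03 (-0.88 to 0.81). The median of the list was 0.02 in Cre/+ and -0.06 in Cre/Cre (0.01 without Cre/Cre replicate 1).

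**Figure D4:**
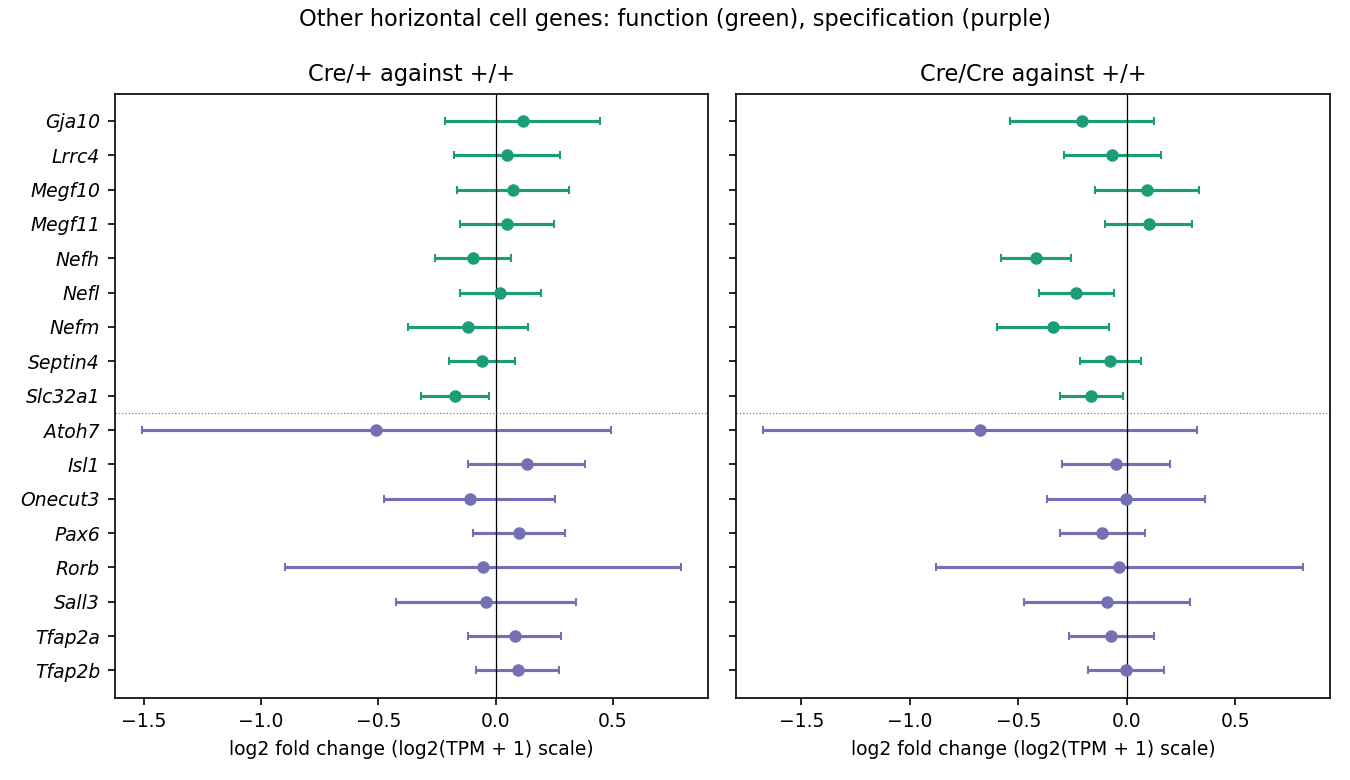
Log2 fold changes (log2(TPM + 1) scale) with 95% confidence intervals from limma for the 9 genes of horizontal cell function (green) and the 8 of specification (purple), in Cre/+ and Cre/Cre against +/+. In Cre/Cre the intervals of *Nefh*, *Nefl*, *Nefm* and *Slc32a1* lie below 0, and none of these genes passed the adjusted p.

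The genes whose level over the 9 libraries was most like each member were found by Pearson's r on log2(TPM + 1) among all genes tested, as a description. For *Calb1* they were *Ipmk*, *Gm5148* and *Tceal8* (r of 0.983, 0.981 and 0.976), and for *Prox1* they were *A330023F24Rik*, *Utrn* and *Prkcb* (0.986, 0.982 and 0.979). *Onecut2* was most like *Snord42b*, *Tut4* and *Jade1* (0.977, 0.969 and 0.967). *Lhx1* was most like *Lrrc75b*, *Ccdc106* and *Mesd* (0.928, 0.921 and 0.916), and *Onecut1* most like *Bco2*, *Gm1043* and *Bcl2l12* (0.926, 0.925 and 0.916). No other member was among the 3 of any member, and all points share the depth and RNA makeup of their library.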

How the data were processed

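Total RNA of 9 whole-retina samples was made into strand-specific libraries and sequenced as paired reads. The authors' processing names Trimmomatic, FastQC, HISAT2, SAMtools, StringTie and mm10, with versions and annotation not given in the sources used here. The deposited TPM are scaled to 1000000 per library, the deposited FPKM are per length and depth without that scaling, and the deposited coverage is the mean read depth over a gene. The tables hold no counts, so the authors' DESeq2 test was not repeated and counting error is unknown. The planned count test was replaced by the planned test for TPM.

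TPM were summed by gene name. Genes averaging 1 TPM or more were tested by limma 3.58.1 (R 4.3.3, trend and robust prior) on log2(TPM + 1), a scale that understates the change of low genes, with genotype as the only term over all 9 libraries, 6 residual degrees of freedom and two-sided p-values adjusted over 15198 genes. Depth is the common ratio of coverage to FPKM. The genes named are the 5 genes, both horizontal cell lists, the 3 genes most like each, and *Rbpms*, *Xist*, Rn45s and lens genes as library measures. The antisense partners fall outside this rule and were chosen after their values were seen. The genes and lists were chosen with earlier results of these data known. Some genes of the horizontal cell function list are not reported here, for a reason unrelated to their values, and enter none of its counts or medians. Scripts were tested on simulated data. Alternatives were another pseudocount or filter, other scalings, FPKM, the prior, *Xist* as a covariate, a replicate block, only the genotypes compared, and each library left out. Figures used matplotlib 3.10.9 in Python 3.11.15.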

Additional observations from a re-analysis of the deposited data

How the results depend on the processing

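In each of the 5 comparisons 0 of the 5 genes passed an adjusted p of 0.05 under every alternative run and without any one library (limma). For *Onecut1* in Cre/Cre against +/+ (-0.43), the log2 difference was -0.54 to -0.32 with each library left out (adjusted p 0.383 to 0.998) and -0.51 to -0.38 under the other alternatives (0.529 to 0.973). Of the differences of single genes, 291 kept their direction and 6 reversed, all of them near 0. Many of the 291 could not reverse. The filter, prior, replicate block, only the genotypes compared, and omission of a library of another genotype alter the test, not the difference. For *Onecut1* in Cre/+ against +/+ (-0.03), the value was 0.045 without +/+ replicate 3, 4e-04 without Cre/+ replicate 1 and 0.03 without Cre/+ replicate 2. For *Prox1* in Cre/Cre against +/+ (-0.05), it was 0.0099 without short RNA genes, 0.02 without +/+ replicate 1 and 0.074 without Cre/Cre replicate 1 (range -0.16 to 0.074 with each library left out); the cause was not tested. The numbers of all genes called were 1 to 5 in Cre/+, 1 to 4 in Cre/Cre and 1 to 8 in Cre/Cre against Cre/+ with each library left out, and 1 to 2, 0 to 5 and 1 to 6 under the other alternatives. The deviations of same-numbered libraries correlated at -0.12 to 0.13, which cannot decide whether replicate numbers pair the samples. With the replicate block 0 of 5 genes passed, and *Onecut1* in Cre/Cre against +/+ had an adjusted p of 0.699 in limma. Its difference of -0.43 could not move, since the replicate numbers are the same in every genotype. *Onecut2* has no value at a minimum of 5 TPM, being below it. Alternatives that need counts were not run. Counting error is unknown. Coverage was 3.20 to 11.1 reads per base for *Lhx1*, *Onecut1* and *Onecut2*. With a pseudocount of 0.1, their standard errors in Cre/+ against +/+ were 0.159, 0.194 and 0.213. Those of *Calb1* and *Prox1* were 0.0911 and 0.115. The part of counting error in the spread between libraries was not tested.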
